A study of Mus musculus with 16 samples.

Results

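The neural progenitor cell (NPC) clones Ch3, Ch5, Ch7 and Ch8 were each sequenced in 2 libraries, and they are the only clones of the series with a repeated library. They make up 8 of the 16 libraries. Of 8407 autosomal genes tested in them, 412 differed in allelic expression ratio among the 4 clones beyond the spread between libraries of a clone. All 4 clones are male F1 hybrid cells whose mother was 129/Sv and whose father was Cast, obtained from embryonic stem cells that were turned into NPCs in N2B27 medium, kept with EGF and FGF2, and picked by hand as colonies after limiting dilution. Each name therefore stands for 1 expanded colony, and the labels name no genotype, allele or treatment by which the groups differ other than the clone. The 8 Ch libraries were made from RNA depleted of ribosomal RNA. The series also holds poly(A) libraries of 3 NPC clones and of astrocytes from 5 clones, 1 library each, which are used below for comparison. The study calls the 2 libraries of a clone biological replicates, while the labels do not say that they came from separate cultures. The p-values therefore measure the spread between libraries, which may be technical. The test pooled this spread largely across genes (median prior degrees of freedom 172), so a gene's own 2 libraries weighed little.

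Random monoallelic expression is the stable use of 1 of the 2 copies of an autosomal gene, set independently in each cell and passed on to its daughters. Unlike genomic imprinting, where the parent of origin fixes the active copy, it leaves different clones of the same animal or culture with different active copies. In F1 hybrid cells a read that covers a strain difference can be assigned to its allele, so a clone that uses 1 copy has reads of 1 strain. The allelic expression ratio is given here as percent Cast, the Cast reads over all allele-specific reads of a gene. A ratio under 15% or over 85% is called monoallelic, from 35 to 65% biallelic, and anything between biased.

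Sequences around the start of 4 genes that the results turn on are shown because transcription of either copy starts in this region. They were taken from the reference genome and not from the alleles of these cells. Strain differences, at CG positions too, are therefore not shown. Each is the 300-base RefSeq window from 250 bases before to 50 bases after the start, on GRCm38.p6, with every CG in capitals, since CG dinucleotides are the positions that carry DNA methylation in mammals. Asb13 and Tlr3 were monoallelic from opposite alleles in different Ch clones, and Acyp2 and Bag3 are genes that the study followed in detail.
Asb13 promoter, chr13:3633782-3634081, plus strand: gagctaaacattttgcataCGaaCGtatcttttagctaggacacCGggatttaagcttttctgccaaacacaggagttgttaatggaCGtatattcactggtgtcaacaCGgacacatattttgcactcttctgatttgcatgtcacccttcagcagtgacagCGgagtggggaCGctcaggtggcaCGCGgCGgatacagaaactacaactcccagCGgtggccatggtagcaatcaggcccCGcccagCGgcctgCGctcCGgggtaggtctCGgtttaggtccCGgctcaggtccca
Tlr3 promoter, chr8:45410331-45410630, minus strand: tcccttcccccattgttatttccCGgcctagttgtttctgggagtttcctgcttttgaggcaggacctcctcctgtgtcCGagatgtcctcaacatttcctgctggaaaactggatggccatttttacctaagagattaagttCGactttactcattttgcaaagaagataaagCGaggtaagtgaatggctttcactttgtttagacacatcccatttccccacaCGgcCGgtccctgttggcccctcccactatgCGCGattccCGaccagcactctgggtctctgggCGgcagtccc
Acyp2 promoter, chr11:30649347-30649646, minus strand: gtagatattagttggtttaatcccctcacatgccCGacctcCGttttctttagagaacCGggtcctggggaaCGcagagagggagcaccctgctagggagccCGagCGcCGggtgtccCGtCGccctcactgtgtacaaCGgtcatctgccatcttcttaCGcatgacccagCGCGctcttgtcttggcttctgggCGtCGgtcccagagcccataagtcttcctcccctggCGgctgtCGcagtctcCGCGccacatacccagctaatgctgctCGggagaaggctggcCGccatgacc
Bag3 promoter, chr7:128523333-128523632, plus strand: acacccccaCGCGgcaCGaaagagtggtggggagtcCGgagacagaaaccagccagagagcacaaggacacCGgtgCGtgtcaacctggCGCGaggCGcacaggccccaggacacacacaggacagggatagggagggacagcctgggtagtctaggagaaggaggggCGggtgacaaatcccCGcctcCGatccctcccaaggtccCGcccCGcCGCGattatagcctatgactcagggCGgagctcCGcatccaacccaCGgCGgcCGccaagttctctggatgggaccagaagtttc
These windows held 17 CG in Asb13, 10 in Tlr3, 21 in Acyp2 and 21 in Bag3. Of 27025 RefSeq windows of this length, 94.2% held a CG. A comparison of CG content over all called genes is void, because a window was at hand for 296 of the 412 genes, or 71.8%, under the 80% set for it.

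The Ch libraries held 4193927 to 5971768 allele-specific reads out of 20871111 to 30920672 reads in genes. The summed level of 6 NPC markers was 4390 to 5320 reads per 1000000 reads in genes (CPM) in the 4 clones, against 0.48 to 0.766 for 4 embryonic stem cell markers, 1.61 to 2.2 for 5 oligodendrocyte markers, 0.429 to 1.4 for 5 mesenchymal markers and 0.0162 to 0.152 for 3 microglial markers. The 5 astrocyte markers summed to 45.8 CPM in Ch8 and 97.9 in Ch7, and 5 neuronal markers to 978 to 1250, most of it Map2. Mog and Zfp42 were at 0 in all 8 libraries. The part of these levels in the allelic differences was not tested. The median percent Cast of an autosome other than 1 and 12 was 48.3 to 50.3% in every library, and none of 114 windows of 20 Mb had a median outside 40 to 60%. Reads on the single X chromosome, which is maternal, were called Cast in 0.221 to 0.295% of cases, a measure of wrong allele calls. Chromosomes 1 and 12 were left out because their medians stood away from balance, at 32.1 to 32.6% on chromosome 1 in all 8 libraries. On chromosome 12 the median was 100% in the 6 libraries of Ch5, Ch7 and Ch8 and 50% and 49.5% in those of Ch3, so Ch3 also differed from the other clones in the state of a whole chromosome.

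Which genes differ among clones was asked with edgeR's quasi-likelihood F test on the Cast and 129 read counts, keeping a gene where each of the 8 libraries had 20 or more allele-specific reads. At a Benjamini-Hochberg adjusted p under 0.05, 412 genes were called, 4.9% of those tested. The count depended on the test, with 190 genes by DESeq2, 143 by limma on percent Cast and 1212 by a chi-square test of counting error only. The distance from the lowest to the highest clone mean, called the span below, had a median of 20.4 points in the called genes and 5.94 points in all genes tested. It reached 20 points or more in 212 called genes (2.52% of those tested) and 50 points or more in 47 (0.559%). At the other end, 78 called genes spanned under 10 points, the smallest 1.06 points. All 8 libraries were biallelic for 97 of the called genes, and for 6091 of all genes tested, or 72.5%.

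**Figure D1:**
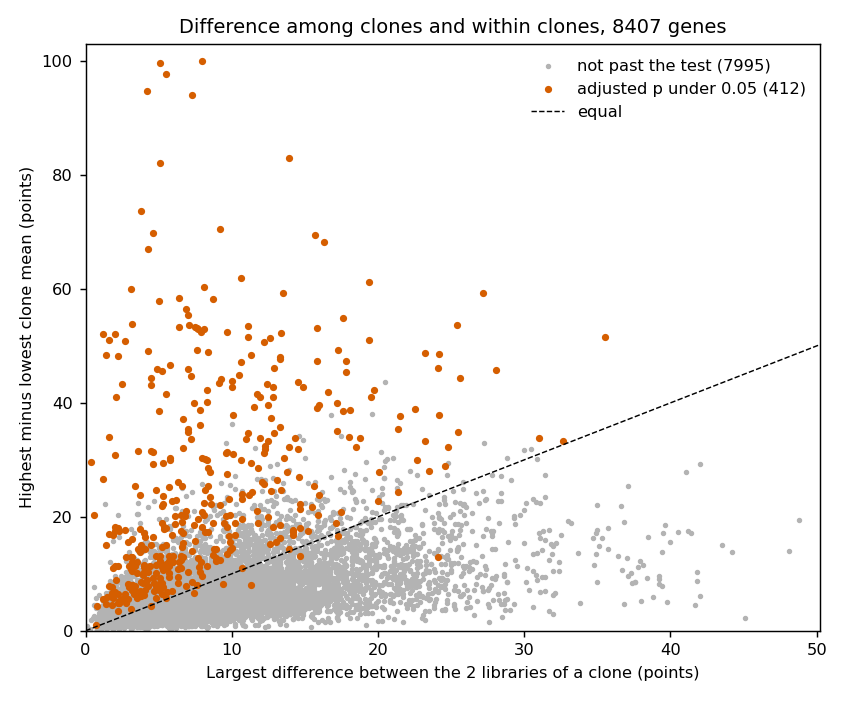
Each point is 1 of 8407 genes. The horizontal axis gives the largest difference in percent Cast between the 2 libraries of a clone, and the vertical axis the highest minus the lowest clone mean, both in percentage points. Of the 412 called genes (orange), 405 lie above the dashed line of equal differences, against 2868 of all genes tested.

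Agreement between the 2 libraries of a clone set the precision. Over the tested genes their percent Cast had an r of 0.718 in Ch3, 0.794 in Ch5, 0.787 in Ch7 and 0.762 in Ch8, and libraries of different clones had an r of 0.597 to 0.703. This r is taken across genes, which are not independent replicates. The SD of the difference between the 2 libraries was 8.35 points in Ch3, where counting error alone gives 6.02. It was 6.6 points in Ch5, 6.47 in Ch7 and 7.08 in Ch8, where counting error gives 5.56, 5.47 and 5.77. The libraries of each clone thus differed by more than sampling noise and were kept as 2 samples.

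The widest differences were genes read from opposite alleles in different clones. In all, 6 genes were under 15% Cast in both libraries of a clone and over 85% in both libraries of another: Aga, Igf2bp1, Asb13, S100a10, Tlr3 and Gbp7. Igf2bp1 encodes an RNA-binding protein of the developing embryo that controls the stability and translation of its target mRNAs. Its percent Cast was 100% and 99.3% in Ch3, 0% and 0% in Ch5, 44.8% and 48.7% in Ch7, and 24.1% and 19% in Ch8. The 4 clones were all apart, with the Cast copy alone in Ch3, the 129 copy alone in Ch5, both in Ch7 and mostly 129 in Ch8. The span was 99.7 points (edgeR adjusted p = 1.75e-66), and all 6 pairs of clones differed. No Cast read was seen in Ch5 among 651, which allows a share of up to 0.461%; such limits cover counting error only.

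Asb13, a substrate adaptor of cullin ubiquitin ligases, was at 52.6% and 51.5% in Ch3, 2.48% and 1.01% in Ch5, 48.9% and 54.4% in Ch7, and 100% and 99% in Ch8. Ch3 and Ch7 were biallelic and overlapped (adjusted p of the pair = 0.991), while Ch5 and Ch8 used opposite copies. S100a10, the partner of annexin A2 at the plasma membrane, was at 0% and 0.725% in Ch3, 66.3% and 70.5% in Ch5, 94.8% and 95.3% in Ch7, and 66.5% and 64.6% in Ch8. Only Ch5 and Ch8 were not told apart (adjusted p of the pair = 0.727). Its span of 94.7 points had an edgeR adjusted p of 1.16e-79.

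Tlr3, the endosomal receptor for double-stranded RNA, was at 98.1% and 100% in Ch3, 5.75% and 4.17% in Ch5, 55.3% and 59.3% in Ch7, and 51% and 58.3% in Ch8. Its 2 monoallelic clones again used opposite copies, and the ranges of the 2 biallelic clones overlapped. Gbp7, an interferon-induced GTPase, was at 96.9% and 94.6% in Ch3, 37.7% and 51.6% in Ch5, 11.5% and 14.1% in Ch7, and 82.1% and 69.6% in Ch8, and no 2 clones overlapped. Aga, the lysosomal enzyme that cleaves asparagine from sugar residues, rested on the fewest reads of the 6, with 24 in its shallowest library. It was at 100% in both libraries of Ch3, 67.5% and 62.4% in Ch5, 0% in both libraries of Ch7, and 73% and 65% in Ch8. The 51 reads of Ch7 held no Cast read, which allows up to 5.88%, and the 114 reads of Ch3 held no 129 read, which puts the Cast share at 97.4% or more.

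**Figure D2:**
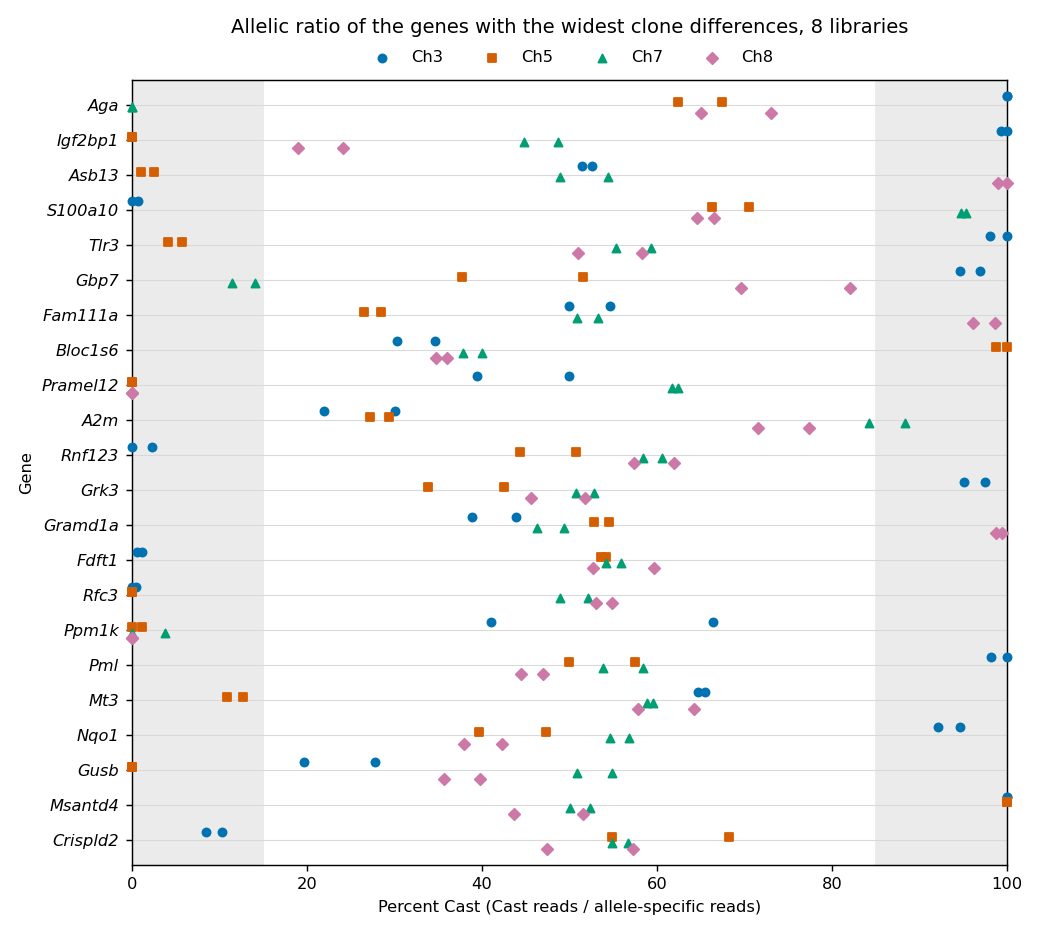
Percent Cast of 22 genes, each with 8 points, 2 for each clone, by colour and shape. The genes are those of widest span with at least 50 allele-specific reads in every library, and those monoallelic from opposite alleles; grey bands mark monoallelic ratios. The 2 libraries of a clone sit close together in most rows, and Ppm1k in Ch3 is the widest pair, at 41% and 66.4%.

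More often a gene was monoallelic from a single strain, in some clones, and biallelic or biased in the others. Of the called genes, 117 were monoallelic in both libraries of at least 1 clone, 62 from the 129 copy and 61 from the Cast copy, the 6 genes above counting in both. In 75 of them it was 1 clone, in 25 it was 2, in 12 it was 3 and in 5 all 4 clones. By clone, the 129 copy was used alone in 32 called genes in Ch3, 29 in Ch5, 18 in Ch7 and 15 in Ch8. The Cast copy was used alone in 32, 20, 14 and 21. Neither strain's copy was the favoured one across clones, as the excess lay with 129 in Ch5 and Ch7, with Cast in Ch8, and with neither in Ch3; these excesses were not tested.

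Among genes where a single clone stood apart, Fdft1, squalene synthase in the cholesterol pathway, was at 0.549% and 1.15% in Ch3 and at 52.7 to 59.7% in the other 6 libraries. Rnf123, a ubiquitin ligase, was at 2.33% and 0% in Ch3 and at 44.4 to 62% elsewhere. In Pml, the organiser of PML nuclear bodies, Ch3 used the Cast copy, at 100% and 98.2% against 44.5 to 58.4% in the other clones. None of the 3 genes had a Ch3 library within the range of the others. Bloc1s6, a subunit of the complex that sorts cargo to lysosome-related organelles, was at 100% and 98.8% in Ch5 and at 30.3 to 40% elsewhere. Mt3, the brain metallothionein, was at 10.9% and 12.7% in Ch5 and at 57.8 to 65.5% elsewhere. Gramd1a, a sterol transfer protein, was at 98.8% and 99.5% in Ch8 and at 38.9 to 54.5% elsewhere. For this gene Ch3 and Ch5 also differed from each other (edgeR adjusted p of the pair = 9.46e-05).

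In Fam111a, a protease linked to DNA replication, 2 clones stood apart. It was at 96.1% and 98.7% in Ch8, 26.5% and 28.5% in Ch5, and 50 to 54.6% in Ch3 and Ch7, which overlapped.

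Other genes divided the clones into pairs. Rfc3, a subunit of the clamp loader of DNA replication, was at 0% and 0.476% in Ch3 and at 0% in both libraries of Ch5, against 52.1% and 48.9% in Ch7 and 53% and 54.9% in Ch8. The 416 reads of Ch5 allow a Cast share of up to 0.721%. Msantd4 had the reverse pattern of alleles, with 100% in all 4 libraries of Ch3 and Ch5 and 43.7 to 52.4% in those of Ch7 and Ch8. Pramel12 came close to such a division. It was at 0% in all 4 libraries of Ch5 and Ch8, which allows up to 1.18% and 1.42%, at 50% and 39.4% in Ch3 and at 61.7% and 62.4% in Ch7, and Ch3 and Ch7 differed as well (adjusted p of the pair = 0.0215).

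Gene by gene, 1081 of 50442 gene and pair tests passed when all 6 pairs of clones were tested together. There were 216 genes for Ch3 against Ch5 (2.57%), 216 for Ch3 against Ch7 (2.57%), 236 for Ch3 against Ch8 (2.81%), 145 for Ch5 against Ch7 (1.72%), 138 for Ch5 against Ch8 (1.64%) and 130 for Ch7 against Ch8 (1.55%). The 3 pairs with Ch3 had the highest counts. Ch3 also had the largest SD between its 2 libraries, 8.35 points, while the fit used the same spread for all clones. The part of this in the counts was not tested. In 108 called genes exactly 1 clone passed the test against each of the other 3, and no pair of those 3 passed: Ch3 in 52 genes, Ch5 in 25, Ch8 in 18 and Ch7 in 13. Ch3 moved towards Cast in 22 of its 52 genes and towards 129 in 30. Among the 30 were Cdh13 and Crispld2, from 1 stretch of chromosome 8 described below, where 11 called genes were lower in Ch3. Such neighbours may not be independent, and they also enter the pair counts of Ch3. A clean division into 2 clones against 2 was seen in 21 genes, of which 7 put Ch3 with Ch5, 8 put it with Ch7 and 6 with Ch8. Fitted without Ch3, the test called 270 genes, of which 235 were among the 412.

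Pyrosequencing had been used in the study on a list of genes, most of them chosen for random monoallelic expression and Eya3 for biallelic expression. Of these 13 genes, 6 lay on the chromosomes kept and had enough reads in all 8 libraries, and A2m, Acyp2, Bag3 and App were called. A2m, a secreted protease inhibitor, was at 22% and 30.1% in Ch3, 29.4% and 27.2% in Ch5, 88.4% and 84.2% in Ch7, and 77.4% and 71.6% in Ch8. Ch3 and Ch5 overlapped and both favoured 129, whereas Ch7 and Ch8 favoured Cast and differed from each other (adjusted p of the pair = 0.0338). Acyp2, an acylphosphatase, was at 72.9% and 45.7% in Ch3, 0% and 0% in Ch5, 54.2% and 58.9% in Ch7, and 66.7% and 49.6% in Ch8. The 101 reads of Ch5 allow a Cast share of up to 2.97%, and the other 3 clones overlapped, the 2 libraries of Ch3 being the widest apart. Its span of 59.3 points had an edgeR adjusted p of 1.1e-15, and limma on percent Cast did not call it.

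Bag3, a co-chaperone of Hsp70 in protein quality control, was at 51.2% and 56.3% in Ch3, 79.1% and 72.4% in Ch5, 59.2% and 52.2% in Ch7, and 100% and 99.3% in Ch8. Ch8 was monoallelic, Ch5 biased, and Ch3 and Ch7 overlapped near balance, so a gene could take 3 different states in 4 clones. App, the amyloid precursor protein, was called with a span of only 5.15 points (edgeR adjusted p = 0.0423), between 50.5% and 57.4% in every library, and neither DESeq2 nor limma called it. Eya2 and Eya3, transcriptional co-activators of the Eyes absent family, had spans of 4.18 and 6.83 points and did not pass (edgeR adjusted p = 0.878 and 0.74). Eya2 was at 16.2 to 26.1% and Eya3 at 40.9 to 50.4% in the 8 libraries.

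Genes called randomly monoallelic in an earlier study of other NPC clones were looked at next. The list at hand held 307 names, fewer than the study behind these data counts. It had 74 members tested and 37 called, or 50%, beside 4.9% of all genes tested. Their median span was 15.1 points, and 21 of the 37 were monoallelic in at least 1 clone. Scd1, the desaturase that makes monounsaturated fatty acids, was at 3.95% and 3.84% in Ch3 and at 47.1 to 53% in the other clones, on at least 963 reads a library. Crispld2, a secreted protein of the same list that lies in a stretch of chromosome 8 described below, was at 10.3% and 8.46% in Ch3 and at 47.4 to 68.3% elsewhere. Without Ch3, 26 of the 74 genes were called (35.1%), where that fit called 270 of 8580 genes (3.15%).

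Imprinted genes had 6 of 22 tested members called (27.3%, against 4.9% of all genes tested), with a median span of 4.05 points over the 22, below that of all genes tested. Peg10 and Sgce, neighbours that are normally expressed from the paternal copy, which is Cast here, were both almost entirely Cast in Ch3. Sgce was at 100% and 99.3% in Ch3 and at 53.9 to 66.3% in the other 6 libraries. Peg10 was at 99.9% and 99.9% in Ch3 and at 79.2 to 82.4% in the others, on at least 8535 reads a library. H13 was at 61.2% and 54.2% in Ch3 and at 19.9 to 28.9% in the others, while Inpp5f was at 47.7% and 47.8% in Ch3 and at 64.2 to 71.5% in the others. In each of these 4 genes it was Ch3 that lay outside the range of the other clones. Fitted without Ch3, 1 of the 22 genes was called (4.55%, against 3.15% of all genes in that fit).

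Genes of the extracellular matrix and of cell adhesion had 18 of 46 tested members called (39.1%, against 4.9% of all genes tested). Of the 46, 9 were called with 20 points or more (19.6%, against 2.52%), and there was a median span of 7.55 points over the 46. Chl1, a neural adhesion molecule, was at 58.9% and 33.3% in Ch3, 88.9% and 92% in Ch5, 48.5% and 44.3% in Ch7, and 87.6% and 85.7% in Ch8. Thbs2, a thrombospondin of the matrix, was at 44.4% and 61% in Ch5 and at 82.4 to 95.8% elsewhere. Fbln2, a matrix fibulin, was at 47.7% and 45% in Ch3 and at 5.65 to 14.9% elsewhere. Cdh13, also of this list, is given with chromosome 8 below. Without Ch3, 12 of the 46 genes were called (26.1%, against 3.15%).

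Receptors and ion channels had 9 of 79 tested members called (11.4%), neural transcription factors 3 of 34 (8.82%) and antigen presentation and interferon genes 2 of 10 (20%), against 4.9% of all genes tested. With 3 and 2 genes called, the shares of the last 2 lists rest on few genes, and the values below describe single genes. Zic1, a zinc finger factor of the dorsal neural tube, was at 63.2% and 60.6% in Ch3, 34.2% and 34.2% in Ch5, 2.04% and 1.75% in Ch7, and 51.5% and 48.4% in Ch8. Sox5 was at 64.3% and 71.3% in Ch8 and at 34.9 to 48% elsewhere. The glutamate receptor subunit Gria2 was highest in Ch3, at 51% and 44.1%, and lowest in Ch5, at 18.1% and 26%. Gbp3, an interferon-induced GTPase like Gbp7, was at 33.3% and 45.5% in Ch5 and at 4.13 to 14.8% elsewhere. Nfia, also a neural factor, Notch2, a receptor, Grik3, a kainate receptor subunit, Gabbr1, a GABA-B receptor subunit, and Slc1a2, a glutamate transporter and the 1 called of 9 tested cell type markers, were called with spans of 6.49, 7.81, 15.4, 17.6 and 11 points, and DESeq2 called none of these 5, nor Sox5 and Gria2. Without Ch3, 5 of 79 receptors and channels (6.33%) and 4 of 34 neural factors (11.8%) were called, against 3.15%.

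Broadly expressed genes were called at shares near or below the background. Cell cycle genes had 2 of 57 called (3.51%), Cdkn2a with a span of 6.55 points and Kif20b with 11.3, and ribosomal proteins 2 of 67 (2.99%), Rpl29 with 21.9 and Rpl36 with 5.76; DESeq2 called none of the 4. Zinc finger genes with a Zfp symbol had 11 of 246 called (4.47%), a share near the background, and 9 called with 20 points or more (3.66%, against 2.52%), so the values below describe single genes and not the family. Zfp422 was at 0.493% and 0% in Ch3 and at 42.6 to 50% elsewhere, and Zfp948 at 97.5% and 100% in Ch8 and at 40.9 to 58.5% elsewhere. Zfp974 was at 7.89% and 0% in Ch3 and at 42.9 to 75.9% elsewhere, while Zfp111 was at 12.5% and 19.8% in Ch8 and at 47.8 to 58.1% elsewhere.

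Clustered protocadherins, adhesion proteins whose isoforms are chosen by each neuron from an array of alternative promoters, had 11 of 18 tested members called (61.1%, against 4.9% of all genes tested), 10 of them from the beta cluster and Pcdha11. All 11 spanned 20 points or more, the median span over the 18 was 29.6 points, and none was monoallelic in both libraries of a clone. Some neighbours moved alike and others did not. Ch3 had the lowest mean in the successive called genes Pcdhb14, Pcdhb16, Pcdhb17, Pcdhb19 and Pcdhb20, at 26.5, 19.5, 32.6, 19.3 and 23.8%. It had the highest in Pcdhb5 and Pcdhb6. In Pcdhb14 the Ch3 libraries overlapped those of Ch5 and Ch7, and in Pcdhb17 those of Ch5. Pcdhb18, which lies between Pcdhb17 and Pcdhb19 and was not called, was at 59.5% and 67.1% in Ch3, and Ch5 was its lowest clone. Pcdhb11 was highest in Ch3, at 57.8% and 63.3%, and lowest in Ch8, at 17.5% and 20.3%. Pcdhb10, the gene before it, was lowest in Ch3, at 34.8% and 25.9%, against 60 to 78.1% in the other clones. Pcdhb19 was lowest in Ch3, at 18.8% and 19.7%, and highest in Ch8, at 63% and 68.8%. Among the 11 called genes the highest clone was Ch7 in 4, Ch3 in 3, Ch8 in 3 and Ch5 in 1, and the lowest was Ch3 in 6, Ch8 in 3 and Ch5 in 2. These genes are close paralogs, so reads that fit several of them may be divided between them in a way the counts do not show.

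**Figure D3:**
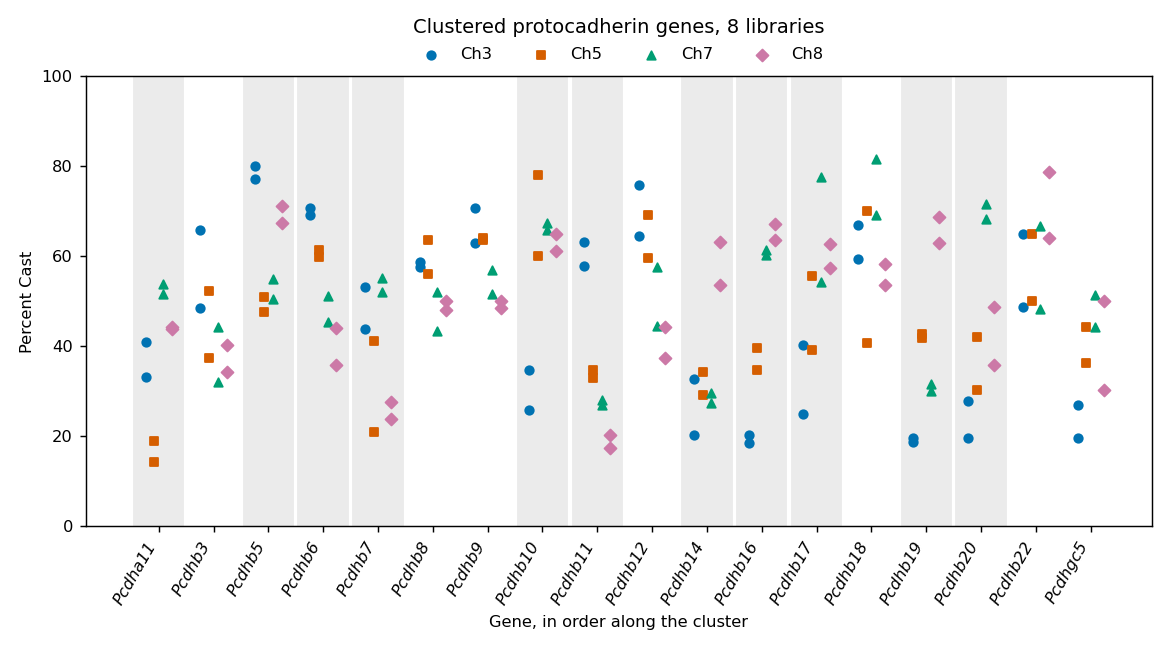
Percent Cast (vertical axis) of 18 clustered protocadherin genes in their order along the chromosome, with 2 points for each clone and a grey column behind each of the 11 called genes. The order of the clones changes along the cluster; Ch3 is at the top in Pcdhb5 and at the bottom in Pcdhb16, at 20.4% and 18.5%.

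Called genes were also placed along the chromosomes. Of the 412, 331 (80.3%) had no called gene as the next tested gene on either side, and 81 had one. The share to be found under random placement was not computed, so this share does not show whether called genes are isolated or grouped. The 47 genes with a span of 50 points or more had 90 other genes as nearest tested neighbours, of which 8 were called (8.89%, against 4.9% of all genes tested) and 55 were biallelic in all 8 libraries (61.1%, against 72.5%). The median span of the 90 was 6.5 points. Igf2bp1 had Zfp652 on the one side, 192448 bases away, at 51.4 to 58.3% in the 8 libraries, and Ube2z on the other, 41487 bases away, at 45.6 to 55.8%. Asb13 lay between Gdi2, at 33.8 to 40.2%, and Net1, at 46.2 to 52.7%. None of these 4 neighbours passed the test (edgeR adjusted p = 0.411, 0.485, 0.474 and 0.977). Fam111a lay between Dtx4, with a span of 3.61 points, and Zfp91, with 3.61 points (edgeR adjusted p = 0.173 and 0.811).

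S100a10 had S100a11 at 28829 bases, with a span of 23 points on as few as 28 reads a library (edgeR adjusted p = 0.254), and Them4 at 745487 bases, with 5.79 points (edgeR adjusted p = 0.97). Tlr3 was the only one of these 5 genes with a called neighbour. Fam149a, 13374 bases from it, was at 30.6% and 22.1% in Ch3, 39.1% and 41.5% in Ch5, 51.5% and 47.9% in Ch7, and 35.1% and 37.6% in Ch8 (edgeR adjusted p = 4.05e-07). It was lowest in Ch3, where Tlr3 was highest, so the 2 genes did not shift towards the same allele. Sorbs2, on the other side of Tlr3, had a span of 7.52 points (edgeR adjusted p = 0.963).

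Of the 81 called genes with a called neighbour, 70 lay outside a stretch of chromosome 8 that is described here and the gene just after it. Together these held 12 called genes, and the stretch was chosen after its values were seen. In it, from Cdh13 to Zdhhc7 (GRCm38, chr8:118140017-120103900), 13 consecutive tested genes all had a lower percent Cast in Ch3 than the median of the other clones, by 11.9 to 46.4 points with a median shift of -16.7, and 11 of them were called. Hsbp1, a small regulator of heat shock factor, was at 28.3% and 30% in Ch3 and had clone means of 45.7 to 46.7% elsewhere, and Mbtps1, the Golgi protease that activates SREBP, was at 32.7% and 31.1% against means of 48.8 to 49.6%. Cdh13, a cadherin anchored to the outer membrane, was at 44.2% and 43% in Ch3 against 60 to 62.9%. The total reads of the same genes were higher in Ch3 in 12 of the 13, with a median log2 difference of 0.53 in CPM, or 1.44-fold, beside -0.03 over all tested genes; Cdh13 was lower, at -0.23. The next gene after Zdhhc7, 6430548M08Rik, was called in the other direction, at 83.1% and 88.7% in Ch3 against clone means of 34.4 to 48.5%. Beyond these 14 genes, the 6 tested genes on each side had a median shift of -0.41 points, a median log2 difference of 0.01, and none was called. The cause of this pattern was not tested. Without these 14 genes, 400 genes were called.

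**Figure D4:**
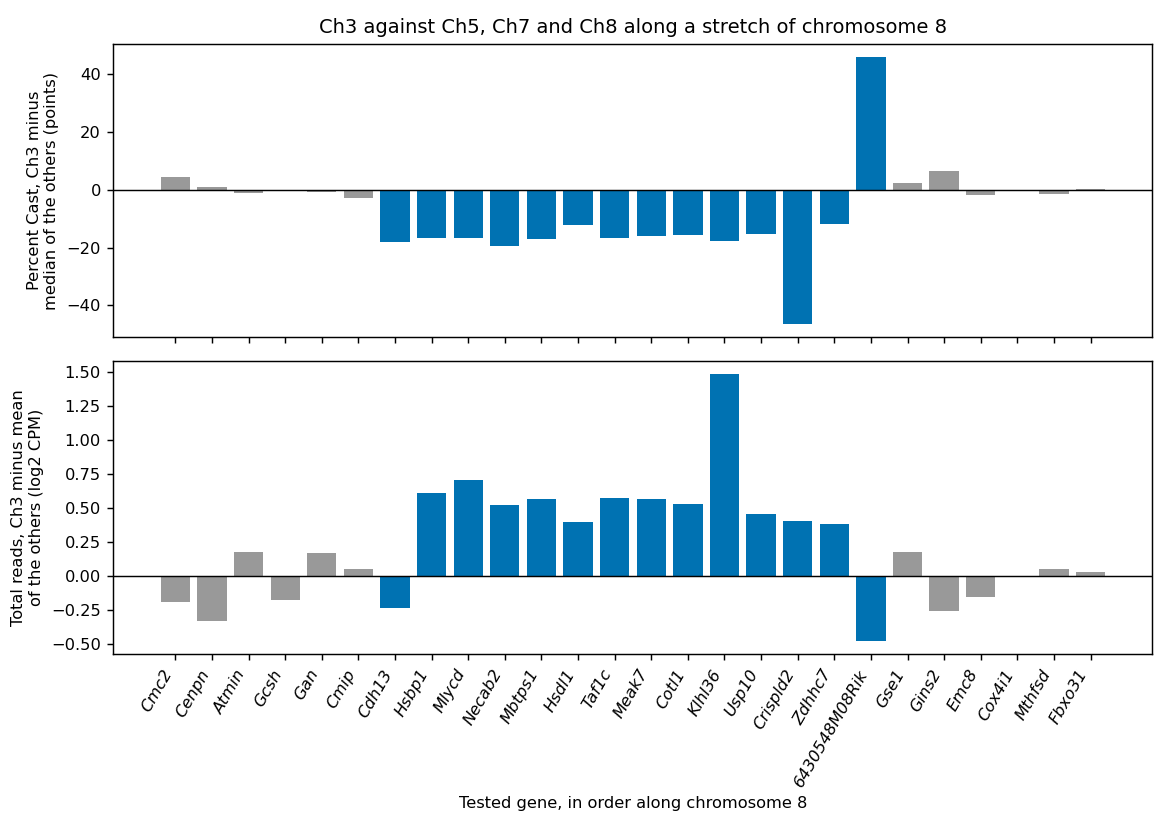
Tested genes in order along chromosome 8, with the stretch and the gene after it in blue and 6 genes on each side in grey. The upper panel gives percent Cast in Ch3 minus the median of the other 3 clone means, in points, and the lower panel the log2 CPM of all reads in Ch3 minus the mean of the other clones. The 13 genes from Cdh13 to Zdhhc7 are all below 0 in the upper panel, and all but Cdh13 are above 0 in the lower one.

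Total expression was compared among the 4 clones on all reads of a gene. These include the allele-specific reads of the ratio, which were 18.94 to 21.06% of all reads in the Ch libraries. In bulk samples, fewer cells that express a gene and less RNA per cell cannot be told apart. edgeR's quasi-likelihood test called 2889 of 17095 genes (16.9%), and 1625 of the 8407 genes tested for their ratio (19.3%). Among the 412 genes whose ratio differed, 280 also differed in total expression (68%), and among the 212 with a span of 20 points or more, 166 (78.3%). The total count of 2889 fell to 1835 and 1653 without the first or the second library of Ch3, and to 1806 and 1778 without those of Ch7.

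The direction of that difference was read from genes that were monoallelic in some clones and biallelic in others. There were 76 such genes, leaving out those monoallelic from both alleles. Total expression was lower in the monoallelic clones in 67 of them, with a median log2 difference of -0.8 (interquartile range -1.06 to -0.47, on log2 of CPM + 0.5). In 64 of the 76 the total differed among the clones, 57 lower and 7 higher in the monoallelic clones. When the CPM were divided between the alleles by their ratio, the expressed allele alone had a median log2 difference of 0.08 (interquartile range -0.17 to 0.32). A gene read from 1 copy thus had, in most cases, less RNA than in clones that used both, and the copy in use was at about the same level in both states. No test was run over these genes.

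Single genes show it by library. Rfc3 was at 21.8, 21.8, 21.8 and 23.2 CPM in the monoallelic clones Ch3 and Ch5, and at 48.6, 49.8, 54.5 and 61.9 CPM in the biallelic clones Ch7 and Ch8 (edgeR adjusted p = 8.26e-07). Msantd4 was at 20.3 to 24.3 CPM in its 4 monoallelic and at 38.5 to 46.1 CPM in its 4 biallelic libraries. Gramd1a was at 32.1 and 36.1 CPM in Ch8, where only Cast was read, and at 60.8 to 74 CPM elsewhere. In none of the 3 genes did the groups overlap. Bag3 was at 14.7 and 14.1 CPM in monoallelic Ch8 and at 14.1 to 22.9 CPM elsewhere, and its total did not pass (edgeR adjusted p = 0.0638).

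Some genes went the other way. Thbs2 was at 30.3 to 33.7 CPM in Ch7 and 15.3 to 17.1 CPM in Ch8, both monoallelic from Cast, and at 8.05 and 8.48 CPM in Ch5, and the log2 difference for it was 1.41. Ch3, at 82.4% and 88.3% Cast and so not monoallelic in both libraries, had the lowest total, at 4.33 and 3.85 CPM, so a high Cast share did not go with a high total in every clone. Igf2bp1 was highest in Ch8, at 59.2 and 56.1 CPM, where it was biased, and at 33.6 and 34.5 CPM in Ch5, read from 129 alone. Its biallelic clone Ch7, at 18.7 and 17.6 CPM, was no higher than Ch3, at 19 and 18.4 CPM, read from Cast alone. For Igf2bp1 the number of copies in use and the total level therefore did not run in parallel.

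**Figure D5:**
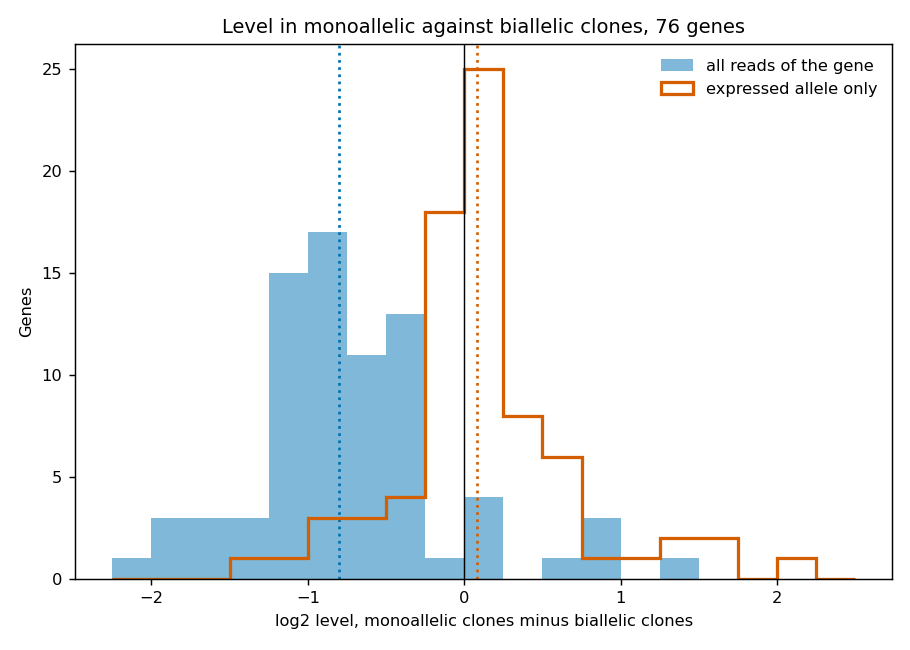
Histogram of 76 genes by the log2 level in their monoallelic clones minus that in their biallelic clones, for all reads of the gene (filled, blue) and for the expressed allele only (orange line), with dotted lines at the medians. The median is -0.8 for all reads and 0.08 for the expressed allele.

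The same genes were then read in the 8 poly(A) libraries, which the test did not use. With at least 20 allele-specific reads, 34.6% of 1196 values of the called genes in the 3 NPC clones F5, mG2 and mG6 lay outside 35 to 65%, and 16.2% were monoallelic. For genes tested and not called these shares were 7.71% and 2.43%. In the astrocytes, 35.4% of 1893 values of the called genes lay outside that range and 17.3% were monoallelic, against 9.3% and 2.45% of the rest. Across the 5 astrocyte clones the ratio spanned 20 points or more in 158 of 326 called genes with a value in each (48.5%), and in 1010 of 7708 of the rest (13.1%). Values of a library share its preparation and depth, and each clone is 1 library, so these shares carry no test.

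S100a10, which had 3 states in the Ch clones, was at 57.7% in F5 and 58.8% in mG6 and at 99.8% (Wilson 95% interval 99.6 to 99.9%) in mG2. Rfc3 was at 0.242% (0.0824 to 0.709%) in F5, at 53.6% in mG2 and at 54.8% in mG6. Asb13 was at 0.109% (0.0193 to 0.616%) in F5 and at 46.1 to 55.2% in the other 7 libraries. For these 3 genes a library outside the Ch clones was also monoallelic. Bloc1s6, monoallelic in Ch5, was at 36.7 to 40.7% in all 8 poly(A) libraries, and Fdft1, monoallelic in Ch3, at 52 to 56.5%. Gramd1a, monoallelic in Ch8, was at 46.8 to 53% in them. Acyp2 was at 0% in mG2 and mG6, where 133 and 229 reads give Wilson upper bounds of 2.81% and 1.65%. In astrocytes it was at 3.82% (2.2 to 6.56%) in clone mC3 and at 100% in clone mE6.

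At the threshold itself, Rab11fip3 and Mapk3 were the last genes called (edgeR adjusted p = 0.0495 and 0.0497, spans 9.47 and 10.3 points), and Itga8 and Nup210 the first not called (edgeR adjusted p = 0.0508 and 0.0516, spans 37.9 and 4.79 points). Itga8 had 25 reads in its shallowest library, and Nup210 had 1662. Itga8 passed with TMM factors between alleles (edgeR adjusted p = 0.0485), with the replicate block (0.0389) and with chromosomes 1 and 12 (0.0245), so it lies on the threshold. On simulated counts, with the same spread in all genes and clones, the test found 85 of 100 genes moved by 20 points. It found 99 of 100 moved by 40 points.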

How the data were processed

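Reads of 8 Ch NPC libraries, 3 poly(A) NPC libraries and 5 astrocyte libraries had been aligned by the authors with Tophat and Bowtie2 to the mouse genome (GRCm38) masked at strain differences, assigned to an allele with SNPsplit and counted per gene by strand with featureCounts (TopHat2 2.1.0 and featureCounts 1.5.1 in the submitters' processing notes). The deposited counts are raw, for 50600 Ensembl genes, of Cast, 129 and all reads. The Cast fraction that the authors also deposited was not used. The version of the gene annotation is not given in the sources used here. Symbols and positions are from RefSeq, GRCm38.p6.

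In each Ch library 20 or more allele-specific reads were required of a gene. Of 10083 such genes, 457 had no position, and chromosomes 1, 12 and X were left out, leaving 8407. Cast and 129 counts were fitted with edgeR 4.0.16 (quasi-likelihood F test, terms for library and for allele within clone, no factor between alleles), and total counts with TMM factors and its expression filter. Adjusted p-values are Benjamini-Hochberg, over all genes, or over all genes and pairs. limma 3.58.1 and DESeq2 1.42.0 served as alternatives, under R 4.3.3. CPM are total counts per 1000000 with TMM factors, except for the markers, where no factor was used. Intervals are 95% Wilson, and a count of 0 is read as at most 3. Tested on simulated data of 8407 genes, the allelic test made 12 false calls among the genes that were not moved. The simulated spread was the same in all clones, while that of the Ch libraries was not, so the count may not hold for them. Same-numbered libraries of different clones had deviations correlated at -0.008 to 0.014, so their numbers do not pair them.

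Named genes are the study's genes, the 20 called genes of widest span with at least 50 reads in every library, those monoallelic from opposite alleles, up to 4 of each list by p, the tested neighbours of the first 5 of widest span, and the 2 on each side of the threshold; Gm, Rik and pseudogene names may be counted only. The genes of the chromosome 8 stretch were named after their values were seen. The members and lists were chosen with earlier results of these data known.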

Additional observations from a re-analysis of the deposited data

Results flagged for a closer look

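In 21 called genes with values in 4 or 5 astrocyte clones, 1 clone stood far from the others in 7. Most of these genes were picked for wide differences among the Ch clones. The rule's chance rate of about 1 group in 20 therefore does not apply to them, and the count carries no test. Of the 7, 4 were clone 129: Rfc3 was at 0% there against 47.8 to 51.8% in the other 4 clones, Msantd4 at 99.8% against 50.3 to 59.3%, Rnf123 at 99.8% against 52.1 to 55.7%, and Nqo1 at 95.8% against 29.4 to 35.1%. In clone G4, Aga was at 63.3% against 99.1 to 100% and Pramel12 at 10.1% against 40.3 to 47.9%. Fam111a was at 44% in clone mC3 and at 0% in the other 3 clones with 20 reads, 1 of which had 25 reads. Each is a single library.

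Among genes left out of the comparison, chromosome 12 had a median percent Cast of 100% in all 6 libraries of Ch5, Ch7 and Ch8 and of 49.5% and 50% in those of Ch3. The cause was not tested.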

How the results depend on the processing

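The count of 412 genes whose ratio differed was 190 with DESeq2 and 143 with limma on percent Cast, 1212 with a chi-square test that takes in counting error only, 270 without clone Ch3, and 861 with chromosomes 1 and 12. All 190 genes of DESeq2 and 129 of the 143 of limma were among the 412. Of the 212 genes with a span of 20 points or more, 121 were left at a minimum of 50 reads, and counts were 131 with limma, 330 with chi-square and 570 with chromosomes 1 and 12. The 47 genes with 50 points or more became 26 at a minimum of 50 reads, 110 with no minimum per library, 25 without Ch3 and 226 with chromosomes 1 and 12; DESeq2 gave 46, limma 45 and chi-square 47. Leaving out each library gave 287 to 545 genes, 185 to 281 with 20 points and 47 to 53 with 50 points, 770 to 1453 pair calls, and 1653 to 3524 genes for total expression, which was 4369 with no filter on low counts. With 1 library left in a clone, its spread is assumed to be that of the others. The replicate block, where the numbers share only a number, gave 436 genes (411 of the 412), 1129 pair calls and 3781 genes for total expression. Planned removal of windows outside 40 to 60% changed nothing, as there were 0 such windows. Leaving out the chromosome 8 stretch was chosen after seeing the data.

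For the 71 named genes, 1107 of 1206 values under the alternatives kept direction and side of the threshold, 83 lost the call, 13 gained it and 3 reversed, all in genes that were not called: Sorbs2, at -0.763 points without the first library of Ch3 and between -2.03 and 17.1 over all libraries left out in turn, and Net1, between -0.922 and 4.39. DESeq2 did not call App, Cdkn2a, Gabbr1, Gria2, Grik3, Kif20b, Mapk3, Nfia, Notch2, Rab11fip3, Rpl29, Rpl36, Slc1a2 and Sox5. limma called Rpl29 of these, and did not call Acyp2, Chl1, Fam149a, Gbp3 and Pcdhb10. The cause was not tested. Depth limits the result most in genes with few reads: Itga8, with a span of 37.9 points on as few as 25 reads a library, lay on the threshold.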

Other observations

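Among the tested genes, 61 were monoallelic from the same allele in all 4 Ch clones, and 5 of these were still among the called genes. Of the 61, 28 used the 129 copy in all 8 libraries and 33 the Cast copy; 9 and 20 of them are annotated as pseudogenes, for which reads of a related gene cannot be told apart from their own.

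Eya3, which was near balance in every Ch library, was at 9.48% (Wilson 95% interval 7.68 to 11.7%, 833 reads) in astrocytes of clone G4 and at 45.5 to 51.8% in the other 7 poly(A) libraries. Sgce, which set Ch3 apart, was at 6.21% (5.02 to 7.65%) in astrocytes of clone 129 and at 52.5 to 99.5% in the other 7 libraries. Both values come from a single library each.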
